A study of Mus musculus with 8 samples.

Results

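Myc and its downstream neighbour Pvt1 were followed across 2 nuclear RNA fractions of HL1 cells, a mouse atrial cardiomyocyte line. The interval ran from the start of Myc to 50 kb past the end of Pvt1, chr15:61985341-62428096 in mm10, a length of 442756 bp. All entries inside it were taken on either strand, which gave 3 of the 65265 rows of the short-read gene table and 65 of the 196683 transcripts of the long-read table. The 3 rows were Myc, Pvt1 and Macroh2a3, called H2afy3 in older annotation.

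The short-read data comprised 3 chromatin libraries and 3 nucleoplasm libraries from 3 independent cultures. That same-numbered libraries share a culture was inferred from the titles and from correlations between libraries. Each library used 100 ng of RNA and gave stranded reads 50 bp long. Chromatin is the pellet left when nuclei are extracted with urea and detergent, and nucleoplasm is the soluble part. The long-read data comprised 2 chromatin libraries only, so no fractions can be compared in them. All 8 libraries come from otherwise untreated cells of the single line HL1, grown in Claycomb medium with norepinephrine, and not from heart tissue. The line descends from an atrial tumour of mice carrying a viral oncogene.

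Myc is a basic helix-loop-helix leucine zipper transcription factor that binds DNA as a dimer with Max. It is best known for raising ribosome production, metabolism and cell cycle entry, and both its mRNA and its protein are short lived. Pvt1 is a spliced long noncoding RNA gene on the same strand downstream of Myc. It was first mapped as a breakpoint region of plasmacytomas and is often gained together with Myc in tumours. In the heart, Myc is low in resting muscle and is known to respond to growth stimuli.

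The 2 genes divided differently between the fractions. Pvt1 RNA was about 15-fold higher in chromatin in each pair of same-numbered libraries. Myc RNA was 1.37 to 1.43-fold higher in chromatin in each pair on the deposited scaling. This difference was smaller than the spread between cultures and was called only when libraries were paired by replicate number. Macroh2a3, a pseudogene inside Pvt1 on the opposite strand, was 3.57-fold higher in nucleoplasm at a low level.

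Recovered counts totalled 91657034 to 121773350 in the 6 short-read libraries. Atrial markers were present in chromatin and nucleoplasm, among them Myl7, an atrial myosin light chain, at means of 7828 and 33029 normalized counts, and Ryr2, the calcium release channel, at 149517 and 21092. Nppa, the atrial natriuretic peptide, was low at 20.7 and 76.6, and Tnnt2 and Myh6 were not analysed here. Col1a1 at 109925 and 257260 and Acta2 at 68142 and 181988, single markers of fibroblasts and smooth muscle, were also high. The other fibroblast markers were lower, Pdgfra at 826 and 1670, Dcn at 38.4 and 214 and Thy1 at 0 and 0.966, as were Myh11 at 517 and 533 and Cnn1 at 56.6 and 231 for smooth muscle. The leukocyte markers were Cd68 at 88.5 and 45.8, Cd3e at 7.26 and 0 and Ptprc at 2.40 and 0.966. The nuclear RNA Malat1 was higher in chromatin by 3.82 on the log2 scale, and the mRNAs Gapdh and B2m fell by 2.07 and 2.67.

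Myc lies at chr15:61985341-61990361 on the + strand. Its normalized counts, which are counts divided by a size factor for each library and are not scaled for length, were 1077, 846 and 1694 in chromatin replicates 1 to 3. In nucleoplasm replicates 1 to 3 they were 789, 592 and 1183. The groups overlapped: nucleoplasm replicate 3 stood above chromatin replicates 1 and 2. The chromatin mean was 1206 ± 439 and the nucleoplasm mean 855 ± 301 (SD, n = 3 each). The difference was 0.49 on the log2 scale (standard error 0.34), with a 95% interval from -0.35 to 1.34 and an adjusted p of 0.306 by limma over 35830 rows, so no difference was called. Against that background, 47.8% of all rows tested were called in either direction, 26.9% higher in chromatin and 20.9% lower. The higher rows made up 56.3% of these calls, and 80.0% when the libraries were scaled to the ERCC standards, RNAs spiked into each fraction. In bulk RNA of this kind, fewer cells of a type and less RNA per cell cannot be told apart.

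Within same-numbered libraries the Myc difference hardly varied. Chromatin exceeded nucleoplasm by 0.45, 0.51 and 0.52 on the log2 scale in replicates 1, 2 and 3, while Myc itself varied 2.0-fold between the lowest and highest culture in each fraction. With the replicate number as a block the estimate of 0.49 kept its size, its standard error was 0.055, its 95% interval ran from 0.34 to 0.65, and its adjusted p was 0.00290 by limma. With that block 28.8% of all rows were called higher in chromatin and 23.6% lower. Leaving out each pair of libraries in turn gave blocked values of 0.48 to 0.52 with adjusted p of 0.0101 to 0.0380. These values are on the deposited scaling. Scaling to the ERCC standards with the block gave 1.23, with a larger standard error of 0.18 (adjusted p = 0.00327 by limma).

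The Myc difference stood close to the middle of all rows tested, rows with low counts included. The median over all rows tested was 0.38, and 52.1% of rows had a lower value than Myc. That median depends on the filter: over rows with a mean of at least 10 normalized counts it was 0.049. Rows with a similar level were shifted more to nucleoplasm: among the 4638 other rows within 2-fold of the mean chromatin count of Myc, the median difference was -0.52 and 1068 had a larger difference than Myc.

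**Figure D1:**
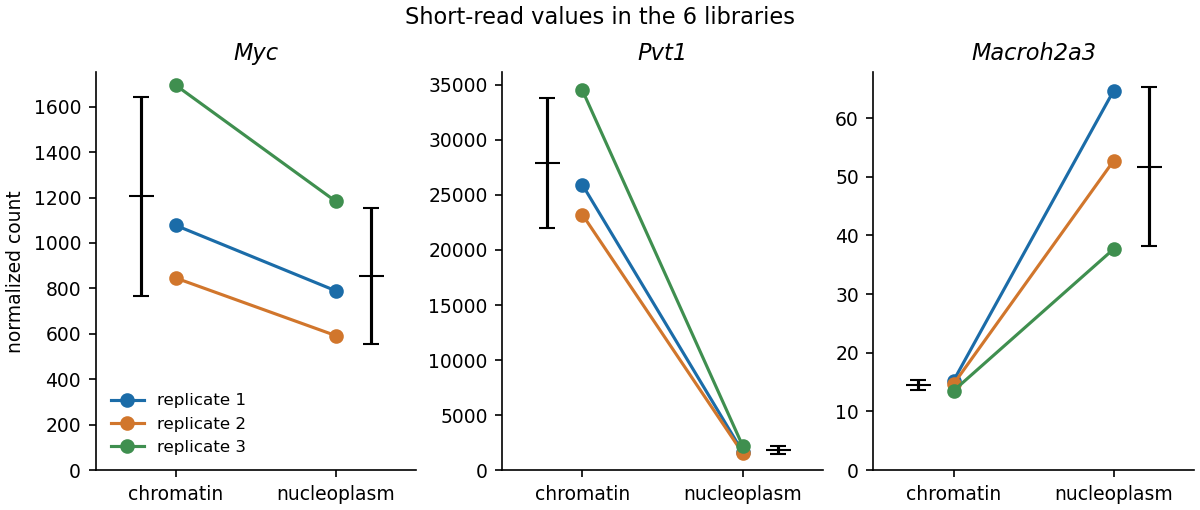
Normalized count (linear axes from 0) of Myc, Pvt1 and Macroh2a3 in the 6 short-read libraries; lines join the fractions of 1 replicate number, and black marks give the mean and SD of 3 libraries. The Myc lines run parallel while the groups overlap, Pvt1 drops from 23201 or more in chromatin to 2232 or less in nucleoplasm, and Macroh2a3 rises to 37.7 or more.

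Pvt1 spans chr15:62037986-62260215 on the + strand in the table, and chr15:62037986-62378096 in GENCODE M21, whose longest isoform reaches farther. Its normalized counts were 25908, 23201 and 34487 in chromatin replicates 1 to 3. In nucleoplasm replicates 1 to 3 they were 1670, 1552 and 2232. Every chromatin library exceeded every nucleoplasm library, as the libraries of 55.3% of all rows tested did in 1 direction or the other. The means were 27865 ± 5892 (SD, n = 3) and 1818 ± 363 (SD, n = 3), a log2 difference of 3.93 (standard error 0.20, adjusted p = 3.83e-05 by limma). The same-numbered libraries differed 15.5-, 14.9- and 15.4-fold. Pvt1 thus passed the study's threshold for chromatin-enriched RNA of more than 4-fold over a span above 200 bp, as did 15.4% of all rows.

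Pvt1 combined a high count with a large shift to chromatin. Its difference was larger than that of 96.7% of all rows, and its mean chromatin count, not scaled for length, was higher than that of 98.6%. Of the 499 other rows with at least its chromatin mean, 35 had a larger difference. Among the 1129 other rows within 2-fold of its chromatin mean, the median difference was 1.15 and 67 had a larger one.

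**Figure D2:**
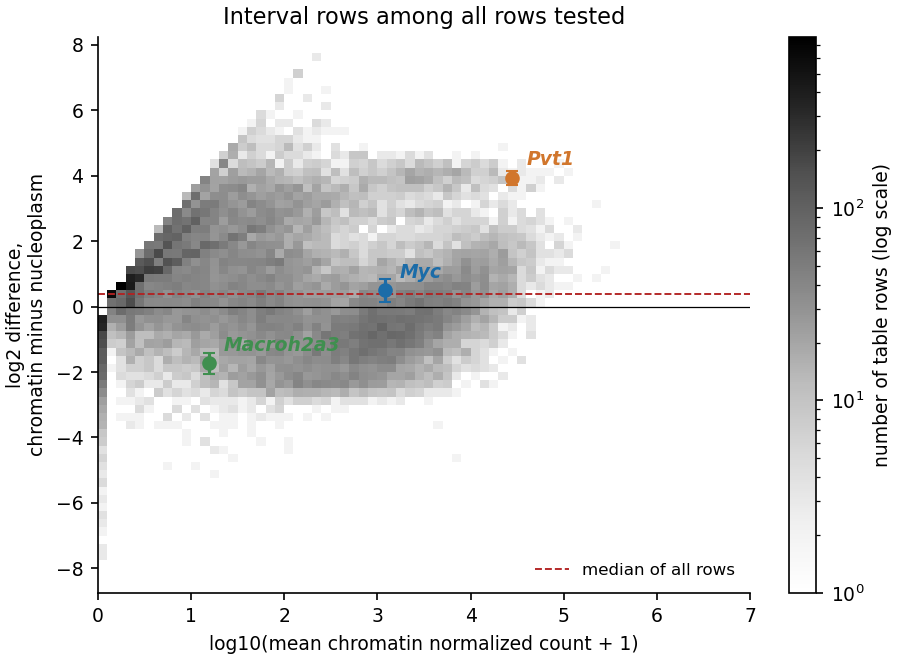
Log2 difference between fractions (chromatin minus nucleoplasm) against log10(mean chromatin normalized count + 1) for the 35830 rows tested, in grey by the number of rows in each cell; coloured points are the 3 rows of the interval with their standard errors. Pvt1 lies at 3.93 in the upper right, Myc at 0.49 near the median of 0.38 (dashed), and Macroh2a3 at -1.74.

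Myc and Pvt1 followed the same order of cultures. In both genes and both fractions replicate 2 was lowest and replicate 3 highest. Among the 15736 rows with a mean of at least 100 normalized counts, 11.7% had that order in both fractions. Cardiomyocyte markers ran the other way: 8 of the 10 atrial markers measured were lowest in replicate 3 of both fractions, against 32.7% of the 15611 genes with a mean of at least 100. The atrial markers summed to 350641, 344366 and 229806 normalized counts in the chromatin libraries, in replicate order, and to 163029, 170898 and 97418 in the nucleoplasm libraries. The summed fibroblast markers, of which Col1a1 made up nearly all, were 101721, 113644 and 117003 in chromatin and 217458, 212564 and 347415 in nucleoplasm. Smooth muscle markers summed to 76295, 79372 and 50479 in chromatin and 198857, 202666 and 146734 in nucleoplasm, in replicate order. Endothelial markers summed to 1708, 1828 and 1049 and to 2934, 2788 and 1755. Both sums were lowest in replicate 3 of both fractions, like the atrial ones. By gene, 1 of 3 smooth muscle and 2 of 3 endothelial markers were lowest there, and 2 smooth muscle markers were highest. Of the 4 fibroblast markers, 3 were highest in replicate 3 of both fractions, as was 1 of the 10 atrial markers. Among genes with a mean of at least 100 the share was 28.3%. Leukocyte sums ranged from 62.0 to 159 in chromatin and from 39.4 to 58.7 in nucleoplasm. The part of these differences between cultures in the values of Myc and Pvt1 was not tested.

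The ratio of Pvt1 to Myc within a library does not depend on how the library was scaled. In replicate order it was 24.0, 27.4 and 20.4 for chromatin, and 2.12, 2.62 and 1.89 for nucleoplasm. Every chromatin ratio lay above every nucleoplasm ratio, and replicate 3 had the lowest in both fractions. The means were 23.9 ± 3.54 (SD, n = 3) and 2.21 ± 0.376 (SD, n = 3). On the log2 scale the ratio differed by 3.44 between the fractions, 10.9-fold, with an exact two-sided permutation p of 0.1, the smallest that 3 libraries against 3 allow. The same-numbered libraries gave 3.51, 3.39 and 3.43.

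Between-gene levels were set on length. Per kb of annotated exon inside the table row, of which Myc has 2717 nt and Pvt1 4517 nt, chromatin held 444 ± 161 normalized counts of Myc and 6169 ± 1304 of Pvt1 (SD, n = 3). Nucleoplasm held 314.6 ± 110.7 and 402.5 ± 80.4. By replicate number, nucleoplasm had 290.5, 217.9 and 435.3 for Myc and 369.8, 343.6 and 494.2 for Pvt1, so Pvt1 was the higher in each library of both fractions. The gap depends on the length used. With the GENCODE transcript paired with each RefSeq accession, 2338 nt for Myc and 1563 nt for Pvt1, chromatin held 515.7 ± 187.6 and 17828 ± 3770, and nucleoplasm 365.6 ± 128.6 and 1163 ± 232 (SD, n = 3). Both rows are loci assembled from the short reads, whose own exons were not used here, so any intronic sequence counted with them makes the level per kb of exon too high.

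The 4 short genes that GENCODE M21 types as misc_RNA lie inside Pvt1 on its strand, and none of them had a row of its own. They are shown as landmarks of the region that the Pvt1 row and the long-read transcripts cover, with bases inside an annotated Pvt1 exon in capitals and all other bases in lower case, from the GENCODE M21 transcript sequences (mm10, + strand, 5′ to 3′).
Gm27913, chr15:62038029-62038201: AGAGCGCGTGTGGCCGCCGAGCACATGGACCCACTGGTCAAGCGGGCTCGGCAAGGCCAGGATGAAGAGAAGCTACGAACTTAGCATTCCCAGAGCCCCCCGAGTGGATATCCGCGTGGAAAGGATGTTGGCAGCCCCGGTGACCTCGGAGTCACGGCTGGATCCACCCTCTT
Gm27782, chr15:62080245-62080443: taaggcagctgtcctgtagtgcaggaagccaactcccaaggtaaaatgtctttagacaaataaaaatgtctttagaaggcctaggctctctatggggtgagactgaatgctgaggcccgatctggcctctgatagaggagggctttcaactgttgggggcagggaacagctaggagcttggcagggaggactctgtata
Gm27718, chr15:62107187-62107272: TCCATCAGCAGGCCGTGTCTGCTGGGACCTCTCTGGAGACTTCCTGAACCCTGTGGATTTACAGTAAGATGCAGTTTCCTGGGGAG
Gm27957, chr15:62175422-62175548: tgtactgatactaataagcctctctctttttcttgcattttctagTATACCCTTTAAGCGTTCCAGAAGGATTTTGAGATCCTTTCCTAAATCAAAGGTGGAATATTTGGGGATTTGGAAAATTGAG
Gm27913 lies 43 bp from the Pvt1 start, and all of its 173 nt are in an exon. Gm27718 is exonic over its whole 86 nt, in a part found in 6 of the 10 Pvt1 transcripts. Gm27957 has 82 nt in an exon, preceded by a pyrimidine-rich stretch that ends in ag, the form of a splice acceptor. Gm27782 is intronic throughout, 42.3 kb from the Pvt1 start.

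Macroh2a3 is the remaining row. It lies at chr15:62217541-62219451 on the - strand and is annotated as a processed pseudogene of a macroH2A histone gene. Its normalized counts were 15.2, 14.7 and 13.5 in chromatin replicates 1 to 3, from 15, 14 and 13 counts. In nucleoplasm replicates 1 to 3 they were 64.7, 52.7 and 37.7, from 64, 44 and 52 counts. No chromatin library reached the lowest nucleoplasm library, and the level was low in both. The means were 14.5 ± 0.874 (SD, n = 3) and 51.7 ± 13.5 (SD, n = 3), a log2 difference of -1.74 (standard error 0.31) with an adjusted p of 0.00475 by limma. For comparison, 20.9% of all rows were called lower in chromatin, and in 55.3% the libraries of the fractions did not overlap in either direction. Rows called more than 4-fold lower made up 4.9%, a size that Macroh2a3 did not reach. Scaling to the ERCC standards gave -1.03 with an adjusted p of 0.0431, and 0.0505 with the block added.

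Reads of Macroh2a3 may belong in part to its expressed relative. Of its 1063 different 50-base stretches, 142 or 13.4% occur unchanged in transcripts of Macroh2a2, named H2afy2 in GENCODE M21, and the longest shared run has 95 nt. Myc and Pvt1 shared none of their 2715 and 7277 such stretches with another gene, leaving out the 4 short entries above. Macroh2a2, which encodes a macroH2A histone, stood at 456 ± 155 normalized counts in chromatin against 1421 ± 162 in the other fraction (SD, n = 3 each), a log2 difference of -1.69 (adjusted p = 0.00201 by limma). The pseudogene and its relative had values of -1.74 and -1.69, which differ by less than the standard error of either. How far reads of Macroh2a2 enter the Macroh2a3 row was not tested. The shared run, at chr15:62218221-62218315 on the - strand in mm10, is printed from the GENCODE M21 transcripts because it also meets Pvt1.
Macroh2a3 and Macroh2a2: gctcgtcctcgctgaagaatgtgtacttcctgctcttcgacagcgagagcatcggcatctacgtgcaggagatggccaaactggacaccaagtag
An exon of 109 nt in 1 of the 10 Pvt1 transcripts, chr15:62218223-62218331, crosses this run on the + strand. Its sequence is the reverse complement of 93 nt of the run, so that isoform is complementary to Macroh2a2 RNA over this stretch.

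Genes around Myc were read from lists of its partners, its turnover machinery and its known targets, each with examples by largest mean count. In the table with rows summed by gene, 31.0% of 30809 genes were higher in chromatin, 24.9% lower, and the median difference was 0.34. Of 11 measured network genes, 5 were higher in chromatin and 4 lower, with a median of 0.25. Max, the dimer partner of Myc, was higher by 1.95 and Mga, a Max-binding repressor, by 1.05. Mlxip, which pairs with the Max-like protein Mlx, had a difference of 0.25 (adjusted p = 0.133 by limma, and 0.0139 with the replicate block). Mxi1, a Max-binding antagonist of Myc, fell by 1.28.

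Of 10 measured turnover genes, 5 were higher and 1 was lower, with a median of 0.56, and 6 and 2 with the replicate block. Cip2a, an inhibitor of the phosphatase that destabilises Myc, was higher in chromatin by 1.14. Huwe1, a ubiquitin ligase of Myc, had a difference of -0.08 (adjusted p = 0.667 by limma), and Ppp2ca, a catalytic subunit of that phosphatase, 0.12 (adjusted p = 0.607). Gsk3b, a kinase that marks Myc for degradation, had 0.35 (adjusted p = 0.0512, and 0.0152 with the block). Aurka, a kinase that stabilises Myc family proteins, was the member that fell, by 1.61, and was named after its value was seen.

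Of 18 measured genes known as Myc targets, 2 were higher in chromatin and 10 lower, with a median of -1.10, and 15 were lower with the replicate block. Ldha, lactate dehydrogenase, fell by 2.2. Ncl, nucleolin, fell by 1.07. Nop58, a core protein of nucleolar ribonucleoproteins, was higher by 1.17. Npm1, nucleophosmin, had a difference of -0.78 (adjusted p = 0.0775 by limma, and 0.0158 with the block). Across cultures, 11 of the 18 were highest in replicate 3 of both fractions, as Myc was, against 28.3% of genes with a mean of at least 100. This order rests on 1 culture, whose cell type markers also differed. The part of Myc in it was not tested.

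Pvt1 stood among the more shifted long noncoding RNAs. Of 16 such genes, 11 were higher in chromatin and 2 lower, with a median of 1.79, and with the replicate block 12 were higher and 3 lower. Over all genes 31.0% were higher and 24.9% lower. Among the 11, Rian was near the floor, at means of 2.41 normalized counts in chromatin and 0.242 in nucleoplasm. Meg3, which was not called, had means of 1.38 and 0.978. Those with the largest counts were Malat1 at 3.82, Neat1, the RNA of paraspeckles, at 4.38, Airn, a long imprinted antisense RNA, at 4.16, and Snhg1, a host gene of small nucleolar RNAs, at 1.52. In the order of differences, the neighbours of Pvt1 at 3.93 (standard error 0.20) were Malat1 (standard error 0.19) and Xist, the RNA that coats the inactive X chromosome, at 4.06 (standard error 0.24), and both differed from Pvt1 by less than these errors. Kcnq1ot1, another imprinted antisense RNA, stood highest at 4.55, and the 2 that fell were H19, by 1.79, and Norad, which fell by 0.42. Tug1 at 0.23 (adjusted p = 0.0755 by limma) and Peg13 at -0.48 (adjusted p = 0.0985) were called only with the block, at adjusted p of 0.0393 and 0.0122. The Xist means were low, 88.9 normalized counts in chromatin and 4.39 in nucleoplasm. Xist, Kcnq1ot1, H19, Norad, Tug1, Peg13, Rian and Meg3 were named after their values were seen.

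**Figure D3:**
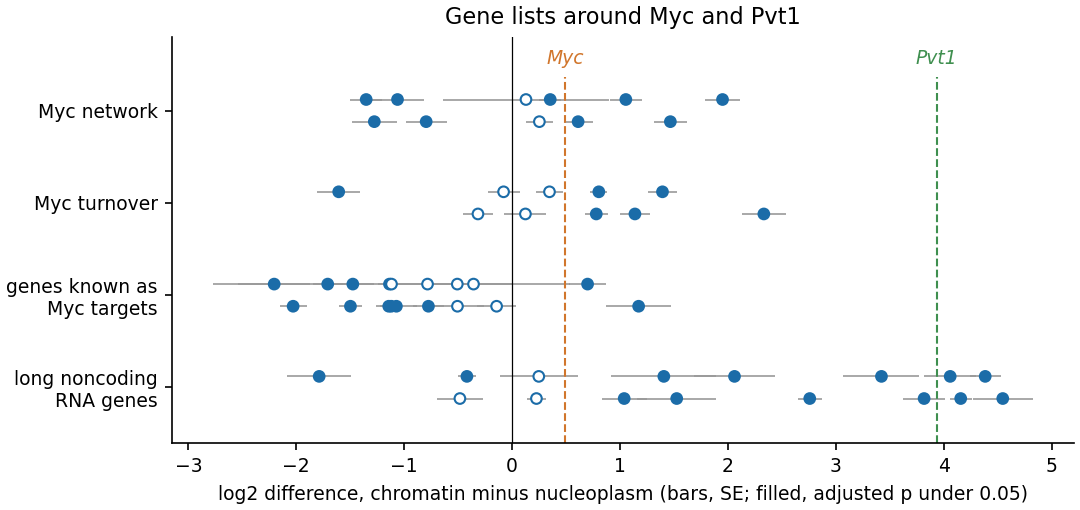
Log2 difference (chromatin minus nucleoplasm, summed by gene) of the measured genes of 4 lists, with standard errors; filled points have an adjusted p under 0.05, and dashed lines mark Myc at 0.49 and Pvt1 at 3.93. The targets lie mostly below 0, with a median of -1.10, and 4 long noncoding RNAs lie to the right of Pvt1.

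The genes with the highest Pearson r over the 6 libraries were taken from 11974 with a mean of at least 100 normalized counts. A high r means the same pattern over the libraries, not the same level or size of difference. For Myc they were Tyw5, Riok2, Bach1, Dusp16 and Dio2, the last with a Pearson r of 0.984 on the log2 scale and the others higher. Tyw5, a tRNA-modifying hydroxylase, had normalized counts of 644, 602 and 769 in chromatin, by replicate number, against 608, 550 and 683, with replicate 2 lowest and replicate 3 highest as in Myc. For Pvt1 the 5 were Ttc19, Eml5, Ddb2, Serac1 and Slc22a15, each with r of 1.00. Their log2 differences were 2.55, 2.78, 1.71, 2.21 and 1.06, all smaller than the 3.93 of Pvt1. Such values were common, since 810 genes had r above 0.99 with Pvt1 and 1 had it with Myc. All points share the 6 libraries, and for Pvt1 the difference between fractions sets most of the spread.

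The nearest annotated protein-coding genes on both sides were at or near 0. Upstream, A1bg lies 1062 kb away and was at 0 in all 6 libraries. Downstream, Gsdmc lies 1348 kb from the interval and reached at most 4.35 normalized counts.

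Long reads covered Myc and Pvt1 with many short models. Of the 65 transcripts listed in the interval, 61 were above 0 in at least 1 library and 49 in both, with summed TPM of 202 and 233 in replicates 1 and 2. TPM gives each transcript's length-scaled share of its library and holds no depth, so no interval for counting error can be given. The 6 RefSeq accessions among them took 19.1 TPM in each replicate, and the 59 assembled transcripts the other 183 and 214, which is 90.5% and 91.8%.

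Myc was represented by the accession NM_010849.4 at 9.12 and 4.99 TPM in replicates 1 and 2. As listed here it ends 1129 bp past the RefSeq end of the gene. A model of 3982 bp on the - strand ends at the same base and stood at 10.9 and 2.46 TPM. The long reads were aligned and assembled without their strand of origin, so a sense and an antisense transcript cannot be told apart in them. No transcript lay in the 46.5 kb between the end of this model and the start of Pvt1, and no short-read row did.

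Pvt1 was represented by 3 accessions. NR_003368.2 stood at 5.31 and 10.2 TPM, NR_132746.1 at 2.18 and 0.764, and NR_132747.1 at 0 and 1.27. NR_003368.2 was the most abundant in both replicates, and its mean TPM was higher than that of 79.2% of the 25900 accessions above 0. The Myc accession was higher than 77.6%. The order of the main Myc and Pvt1 transcripts turned between the replicates, with Myc the higher in replicate 1 and Pvt1 in replicate 2, so the long reads set no order of the 2 genes.

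Most of the signal inside Pvt1 came from intronic spans. Of 42 assembled transcripts in the Pvt1 row, 41 were above 0, and 35 of these touched no annotated Pvt1 exon. These 35 summed to 129 and 157 TPM, against 18.2 and 23.9 for the 6 that touched an exon. The median span of the 35 was 1927 bp. Annotated exons make up 4517 nt of the 222230 bp of the row, so a short model need not meet one. The share of models touching no exon was not computed for other genes. The paper reports that a large part of its long-read transcripts lay wholly inside introns of reference genes. It proposes low coverage, priming inside transcripts and RNA still being made as possible sources. Their part in Pvt1 was not tested. Spans only were used, so a transcript that touches an exon need not share its splice sites.

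The models lay on both strands, 23 on the + strand and 18 on the - strand among those in the Pvt1 row. The + strand models summed to 95.2 and 110 TPM and the - strand models to 51.5 and 71.1. The highest on the - strand was a span of 24740 bp from 2.93 to 27.7 kb past the Pvt1 start, at 9.48 and 15.3 TPM. The highest on the + strand began 169 kb from the start and stood at 13.9 and 7.87 TPM. Over the whole of Pvt1, 20 of 51 models were on the opposite strand, or 39.2%. This set includes models that also meet another gene, which the next shares leave out. Among assembled transcripts inside exactly 1 gene the share was 41.6% over all genes, 40.3% in lincRNA genes and 35.0% in genes over 100 kb. The shares were not tested against each other, since models of 1 gene are not independent replicates.

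The 4 short entries printed above differed in what spanned them. Gm27913 lay within 2 of the Pvt1 accessions and the other entries within all 3. Gm27913 also lay inside a - strand model of 6088 bp at 0.928 and 5.36 TPM. Gm27782, which is intronic, also lay inside a - strand model of 1509 bp at 3.98 and 1.10 TPM. Gm27718 lay in no assembled model above 0. Gm27957 was crossed by 1 model on each strand, the - strand one of 76752 bp at 5.17 and 5.31 TPM. Macroh2a3 itself was listed at 2.49 and 1.89 TPM.

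**Figure D4:**
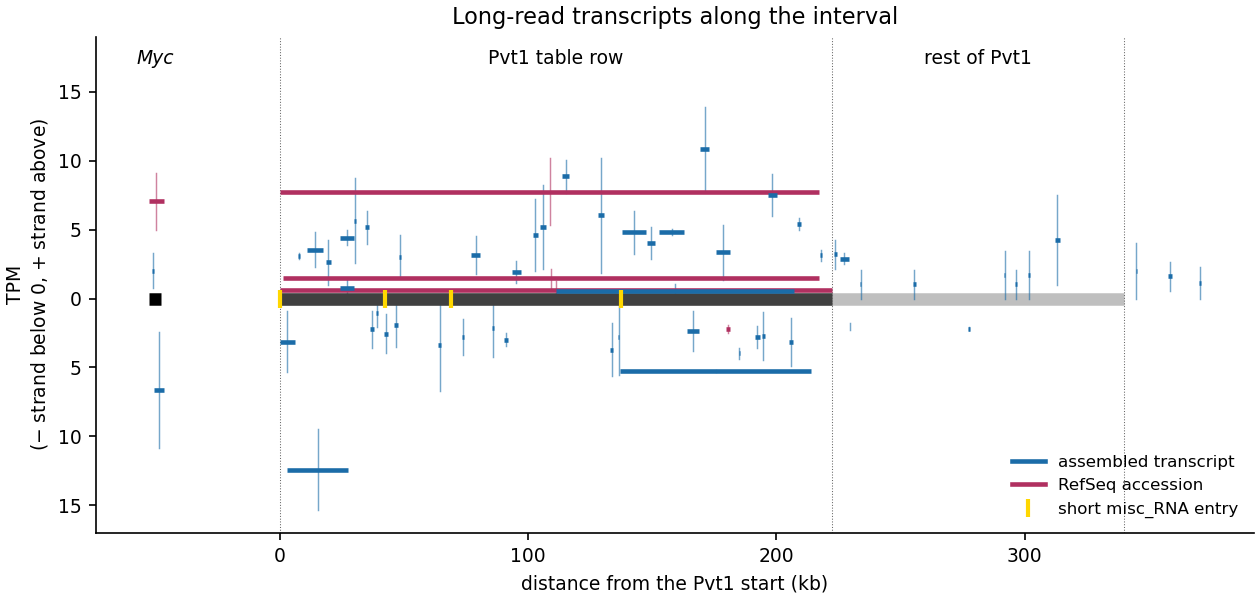
Long-read transcripts above 0 by distance from the Pvt1 start (kb) and TPM, + strand above and - strand below 0; horizontal bars are spans at the mean TPM of 2 replicates, thin vertical lines join the replicates, and the dark and pale grey bars mark the Pvt1 table row and the rest of Pvt1. Models crowd the row on both strands, none lies between Myc and Pvt1, and few lie past 222 kb.

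Models thinned out where the table row ended. In the 222 kb of the row there were 18.4 assembled models above 0 per 100 kb, which together covered 71.9% of it. In the remaining 118 kb of Pvt1, chr15:62260216-62378096, there were 10 models or 8.48 per 100 kb, covering 9.89%. None of these 10 touched an exon of the long isoform, and no short-read row lay there. Summed TPM per 100 kb was 66.0 and 81.5 in the row and 14.9 and 21 beyond it in replicates 1 and 2. Past the end of Pvt1, 3 models above 0 stood in the last 50 kb.

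By steps of 40 kb from the Pvt1 start, the first 240 kb held 6 to 11 assembled models each and the later steps 1 to 4. The first step held most models, 11, with 27.9 and 60.3 TPM in replicates 1 and 2. The step from 120 to 160 kb went the other way, with 37.5 and 16 TPM. The profile along Pvt1 thus differed between the replicates within the row.

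Single long-read models of the interval were poorly repeatable. Of the 49 transcripts above 0 in both replicates, 26 differed more than 2-fold, 27 were higher in replicate 2 and 22 in replicate 1. A further 10 were above 0 only in replicate 2 and 2 only in replicate 1. The same shares over all long-read transcripts were not computed. The paper reports that its long-read replicates diverged more for transcripts of low abundance. The sums by strand were steadier, 132 and 154 TPM on the + strand and 69.4 and 79.3 on the - strand. Per the paper, the replicates differed in read number and in the quality minimum set at base calling. The authors filtered replicate 1 to the stricter minimum for comparing coverage. The part of these technical differences in the TPM values was not tested.

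**Figure D5:**
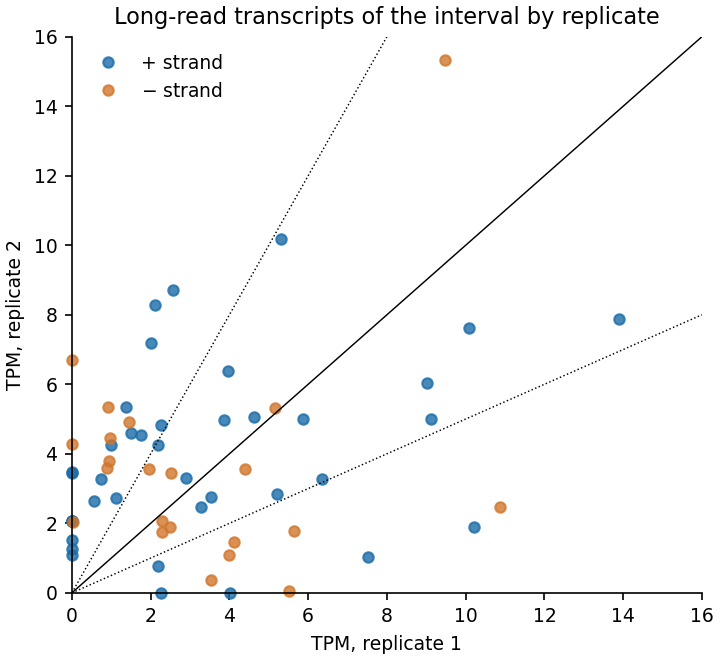
TPM in replicate 2 against replicate 1 for the 61 long-read transcripts above 0, by strand; the solid line marks equal values and the dotted lines 2-fold differences. Of the 49 above 0 in both, 26 lie outside the dotted lines, and 12 lie on an axis.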

How the data were processed

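HL1 chromatin and nucleoplasm RNA was measured in 3 short-read libraries each, and chromatin RNA in 2 long-read libraries. Groups follow the sample titles; 1 label field names chromatin for the nucleoplasm libraries too. Per the methods and the submitters' processing notes, the authors aligned short reads with HISAT2 2.1.0 to mm10 plus ERCC standards using strand, assembled and merged transcripts with StringTie and converted coverage to gene counts. The values the authors deposited are those counts divided by DESeq2's size factors, a normalized signal without length scaling. Long reads were aligned with minimap2 without strand, and StringTie TPM values were deposited.

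Fractions were compared with limma 3.58.1 (R 4.3.3) with a trend on log2(normalized count + 1), over rows with a value above 0 in any library. P-values were adjusted by Benjamini and Hochberg, with a threshold of 0.05. Every value was a whole multiple of 1 step in its library (100% within 0.001), and edgeR 4.0.16 and DESeq2 1.42.0 were run on these recovered counts as alternatives. Those counts derive from coverage, so read totals depend on the read length used. The functions were tested on simulated data. Cell lines give spread between cultures only. P-values without the replicate block measure that spread, and those with it measure the spread of the fraction difference within pairs.

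Replicate numbers come from the titles, and the methods name 3 independent cultures. Deviations from the group means correlated at 0.119, 0.102 and 0.249 in same-numbered libraries over 23858 rows and at -0.158 to 0.0631 in others, so the numbers were taken to pair the libraries.

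An assembled locus was given a GENCODE M21 symbol where its overlap with a gene of its strand, divided by their joint span, reached 0.5, and accession rows were named through RefSeq. Named genes were the interval rows, 2 to 4 list members by largest mean count, the 5 genes most like Myc and the 5 most like Pvt1 by Pearson r, and the nearest protein-coding neighbours. Members and lists were chosen with earlier results of these data known. Computations used Python 3.11.15, scipy 1.17.1 and pandas 2.3.3.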

Additional observations from a re-analysis of the deposited data

How the results depend on the processing

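Pvt1 was called higher in chromatin under all 22 alternatives, from 3.77 to 4.67 on the log2 scale, and from 3.77 to 4.09 when 1 library was left out. Myc stayed above 0 under all 22, from 0.22 without chromatin replicate 3 to 1.23 with ERCC scaling, and from 0.22 to 0.76 (adjusted p 0.131 to 0.598) over the 6 libraries left out in turn. Without the block no alternative called Myc. The replicate block called it at 0.49, which raised the interval rows higher in chromatin from 1 to 2; it changed no other call in the interval. Fits added after the data were seen combined the block with edgeR (0.39, 2 rows), ERCC scaling (1.23, 2 rows) and quantile normalization (0.76, 2 rows) and called Myc each time, as did the block without each pair (0.48 to 0.52, 2 rows). Macroh2a3 stayed below 0, from -2.66 to -1.03, and from -1.94 to -1.56 when 1 library was left out. It lost its call only with ERCC scaling and the block together (-1.03, 0 rows lower). ERCC scaling moved the median of all rows from 0.38 to 0.83, and the share of calls that were higher in chromatin from 56.3% to 80.0%; quantile normalization gave a median of 0.0087 and 47.0%. The other scaling choices and filters changed no call in the interval. The log2 ratio of Pvt1 to Myc differed between the fractions by 3.33 to 3.57 under its 10 alternatives, and by 3.44 within pairs. Long-read transcripts above 0 numbered 29 to 39 on the + strand and 20 to 22 on the - strand, with 132 to 154 and 68.9 to 79.3 TPM. Each of the 3 interval genes had 1 row, so for them sums over rows equal the row values, and no transcript crossed the interval's edge.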
